A study of Homo sapiens with 14 samples.

Results

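The early transcriptional response of LY2 breast cancer cells to tamoxifen was described in cells that had received a scrambled control siRNA. The arrays were chosen by their titles. In all, 4 arrays of tamoxifen-treated cells (replicates 1 to 4) were set against 4 arrays of untreated cells (replicates 1 to 4), paired by replicate number. The differences thus come from 8 of the 14 arrays of the series. The linear model behind the adjusted p-values was fitted to all 14, so the other 6 add to its estimate of spread. LY2 is an MCF-7-derived line selected for resistance to endocrine treatment. All cells of the series had been maintained in 10 nM 4-hydroxytamoxifen, were then grown without it for 72 h, and were transfected with 40 nM siRNA for 24 h. The tamoxifen group then received 100 nM 4-hydroxytamoxifen for 2 h, and the untreated group received 0.01% ethanol, the vehicle. The other 6 arrays came from cells given an siRNA against SRC-1, the coactivator encoded by NCOA1, with 2 tamoxifen-treated arrays (replicates 1 and 3) and 4 untreated arrays. The untreated cells are therefore not naive to the drug. They belong to a resistant line taken off it, and the comparison measured the first hours of re-exposure.

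4-Hydroxytamoxifen is the active metabolite of tamoxifen and binds the estrogen receptor in the pocket that estradiol occupies. In most breast cancer cells the receptor with tamoxifen bound recruits corepressors and represses genes that estradiol induces, but the drug can act as an agonist at some genes and in some tissues, and resistant lines are studied for such agonism. SRC-1 is a p160 coactivator that nuclear receptors recruit to switch on their targets. A short exposure mainly reads out transcripts that are made and degraded quickly, such as immediate early genes and feedback inhibitors of signalling.

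The arrays carried 54675 probe sets, of which 54613 were used. Values are the deposited log2 signals, 1 per probe set and array, so a difference of 1 is a 2-fold difference in signal. The median signal of the 8 arrays lay between 3.44 and 3.49. Luminal markers were bright with and without tamoxifen: GATA3 averaged 13.14 in tamoxifen-treated and 13.17 in untreated cells, and ESR1, the estrogen receptor gene, averaged 12.62 in tamoxifen-treated and 12.73 in untreated cells. The leukocyte marker PTPRC stood at 2.20 in both groups and the endothelial marker PECAM1 at 2.94 in tamoxifen-treated and 2.89 in untreated cells, near the floor of the arrays. The collagen gene COL1A1, chosen as a marker of fibroblasts, was bright (10.88 in tamoxifen-treated and 10.80 in untreated cells), while the other 14 fibroblast markers lay below the median signal of 3.46 in the mean of all 8 arrays. None of 15 fibroblast, 12 immune or 11 endothelial markers passed the limma test at an adjusted p of 0.05, and 1 of them, the immune gene TYROBP, had an unadjusted p below 0.05. Because RNA came from whole cultures, fewer cells that express a gene and less of its RNA per cell cannot be told apart.

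NCOA1 was checked first, since it is the gene targeted elsewhere in the series. Its mean over 4 probe sets was 9.06 ± 0.18 in tamoxifen-treated cells and 8.997 ± 0.25 in untreated cells (SD, n = 4 each). The paired differences were 0.05, -0.16, -0.01 and 0.35 in replicates 1 to 4, and an exact paired permutation test over 16 sign patterns gave a two-sided p of 0.75, where the smallest possible is 0.125. In the SRC1 siRNA cells the same mean was 7.74 with tamoxifen and 7.70 without it. The difference between tamoxifen-treated and untreated control siRNA cells was smaller than the spread between replicates.

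Re-exposure for 2 h moved few transcripts by much. Over all 54613 probe sets the median difference between tamoxifen-treated and untreated cells was 0.01, and 5th and 95th percentiles lay at -0.22 and 0.21. With replicate number kept as a block, 1 probe set passed an adjusted p of 0.05 (0.00183% of those tested), and it was higher with tamoxifen. At an unadjusted p below 0.05 there were 4894 probe sets (8.96%), of which 2530 were higher (4.63%) and 2364 lower (4.33%). Signals of all 4 tamoxifen arrays lay above all 4 untreated arrays for 2705 probe sets (4.95%) and below them for 2135 (3.91%). Only 10 probe sets (0.0183%) differed by 2-fold or more in the mean, 7 higher (0.0128%) and 3 lower (0.00549%), and none of these 10 passed. Without the block 89 probe sets passed (0.163%), 39 higher (0.0714%) and 50 lower (0.0916%). Same-numbered arrays did not deviate together, however, and the replicate numbers differed from each other less than independent arrays would, so the p-values of that count may be too small, which was not tested.

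**Figure D1:**
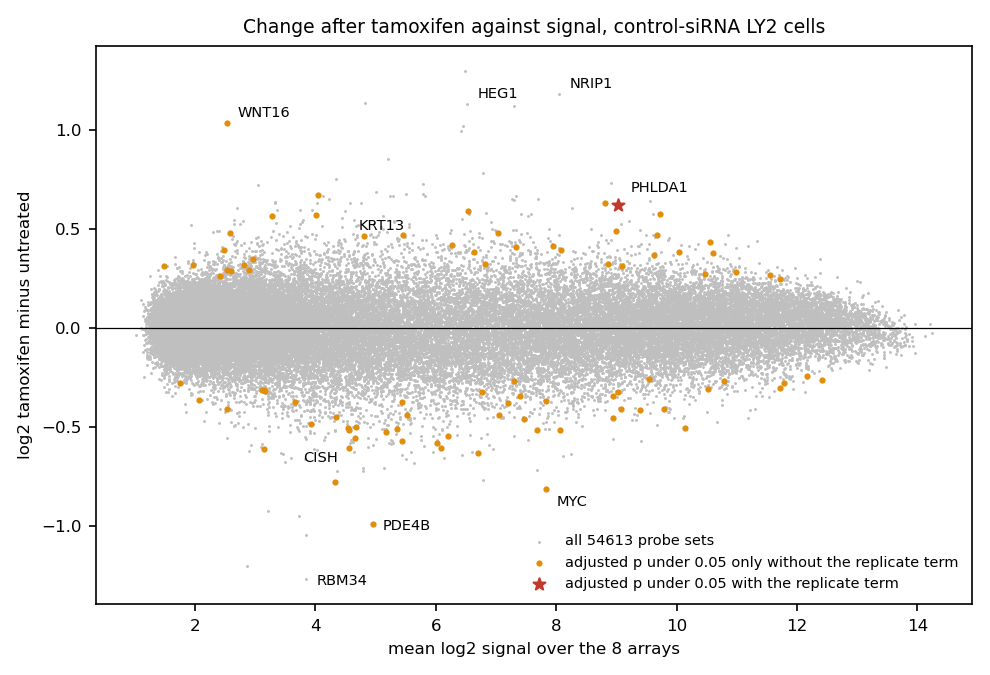
Difference between tamoxifen-treated and untreated control siRNA cells (log2, vertical axis) against the mean log2 signal of the 8 arrays (horizontal axis) for 54613 probe sets. Most points lie within -0.22 and 0.21, and the PHLDA1 probe set that passed stands at 0.62.

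The probe set that passed, 217996_at, measures PHLDA1, a gene on chromosome 12 (positions 76025447 to 76031776, GRCh38.p14). PHLDA1 encodes a pleckstrin homology-like domain protein that is induced by growth factor and stress signalling and has been linked to cell survival and to feedback on receptor tyrosine kinases. Because it is the one call of the comparison, the 250 bases before its annotated start are shown, from RefSeq, chr12:76031777-76032026 (GRCh38.p14, minus strand), 5′ to 3′, without capitals because no searched motif occurred in them:
PHLDA1: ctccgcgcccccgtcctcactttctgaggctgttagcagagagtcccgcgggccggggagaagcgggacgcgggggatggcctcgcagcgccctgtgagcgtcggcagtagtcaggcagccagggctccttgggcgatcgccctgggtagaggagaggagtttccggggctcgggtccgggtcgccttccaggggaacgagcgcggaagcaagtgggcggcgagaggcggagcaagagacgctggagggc
The search covered the palindromic estrogen response element, the single arm of that element (GGTCA), the AP-1 site (TGANTCA) and the cyclic AMP response element (TGACGTCA) on both strands, and the full element contains the single arm. The absence of a match concerns these letters in this window only.

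PHLDA1 rose in all 4 pairs. Signals of 217996_at were 9.33, 9.38, 9.33 and 9.28 in tamoxifen-treated cells, against 8.70, 8.74, 8.72 and 8.67 in untreated cells. The lowest tamoxifen array lay above the highest untreated array, and the paired differences were nearly equal at 0.63, 0.64, 0.61 and 0.61. The mean was 9.33 ± 0.04 with tamoxifen and 8.71 ± 0.03 without it (SD, n = 4 each), a difference of 0.62 ± 0.06 (SE), or 1.54-fold, with a limma adjusted p of 0.0154. Size was stable and the call was not. Over 20 alternative settings the difference stayed between 0.61 and 0.64. Settings that alter only the block or the estimate of spread could not change it. Those that left out arrays kept most of the same nearly equal values. The adjusted p was 0.0768, 0.176 and 0.112 without tamoxifen replicate 1, 2 or 3, and 0.0287 without tamoxifen replicate 4. It was 0.105, 0.196, 0.166 and 0.148 without untreated replicate 1, 2, 3 or 4, so leaving out 7 of the 8 arrays ended the call. A fit to the 8 arrays alone gave 0.387 and a robust trend 0.0577. Leaving out all arrays of replicate number 1, 2, 3 or 4 gave 0.387, 0.778, 0.75 and 0.0906.

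All 6 probe sets of PHLDA1 were higher with tamoxifen, in all 4 pairs each and without overlap between the groups, and all 6 had an unadjusted p below 0.05. Over all probe sets 18% had 4 pairs of one sign. All tamoxifen arrays lay above all untreated ones for 4.95%, and 4.63% were higher at that p. PHLDA1 was chosen because 1 of its 6 probe sets passed. Differences of the 6 ran between 0.39 and 0.63, which is 1.31-fold to 1.55-fold. The brightest of them, 217998_at, read 9.95, 10.14, 9.99 and 9.95 in tamoxifen-treated cells, against 9.57, 9.31, 9.29 and 9.56 in untreated cells. Its difference was 0.57 ± 0.09 (SE), less even over the pairs, and its adjusted p was 0.339. The probe sets share the RNA of the same arrays and are not independent replicates. Averaged over its probe sets, PHLDA1 differed by 0.52 ± 0.08 (SE), with an adjusted p of 0.256 over 19775 genes. Its relatives did not share the direction: the 3 PHLDA2 probe sets differed by -0.04, -0.07 and -0.17, and PHLDA3, a p53 target that dampens AKT signalling, by -0.20 at its brightest probe set.

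**Figure D2:**
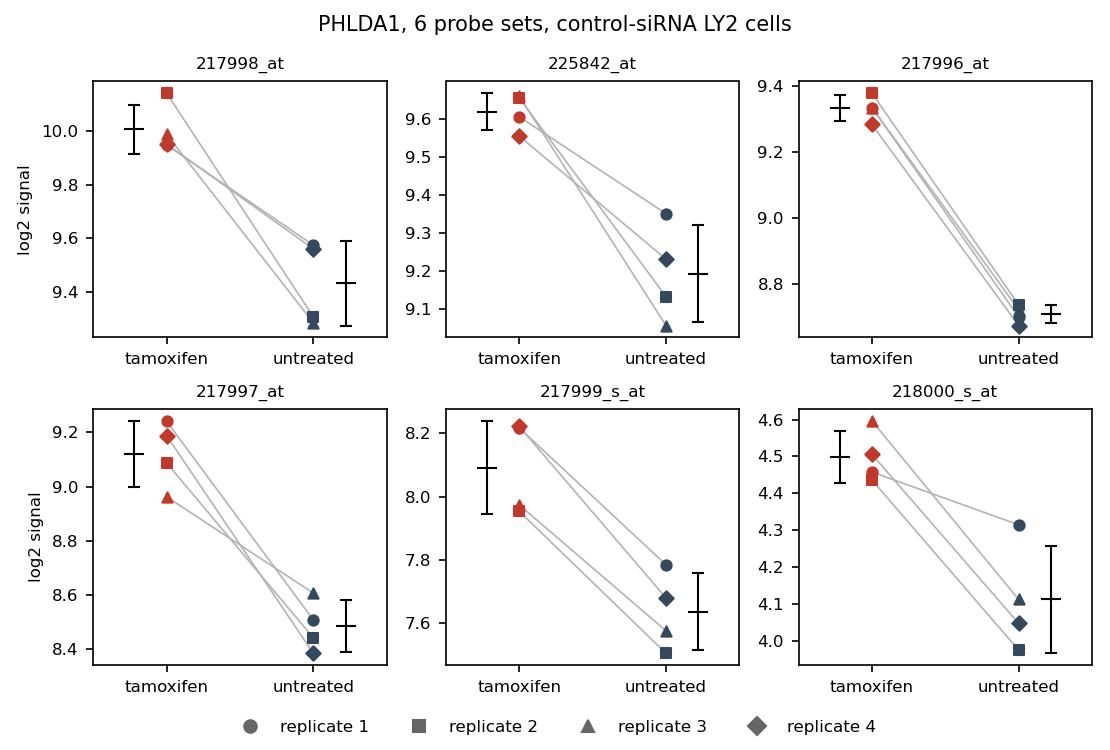
Log2 signal (vertical axis) of the 6 PHLDA1 probe sets in the 4 tamoxifen-treated and the 4 untreated arrays of control siRNA cells, with lines joining arrays of the same replicate number. The tamoxifen array is the higher one in every pair of every probe set.

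Since fewer than 5 genes passed in either direction, the 10 higher and 10 lower genes of smallest unadjusted p are described with their values, among brighter probe sets with 1 gene symbol and the same sign in all 4 pairs. None of these 20 passed, and because they were chosen by the size of p and the agreement of pairs, that agreement is not a result. The higher ones encode proteins of several kinds. KRT13, a keratin of stratified epithelia that estrogen induces, read 4.84, 4.89, 4.91 and 5.37 in tamoxifen-treated cells, against 4.46, 4.47, 4.46 and 4.94 in untreated cells. Its groups overlapped because replicate 4 was higher in both, yet the paired differences were 0.38, 0.42, 0.45 and 0.43. The mean difference was 0.42 ± 0.05 (SE), with a limma adjusted p of 0.164.

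NEK2, a centrosomal kinase of mitosis, read 9.90, 9.94, 9.85 and 9.97 with tamoxifen, against 9.49, 9.52, 9.49 and 9.29 without it. KLHL5, a kelch-repeat protein, had the largest difference of the 10 at 0.67 ± 0.12 (SE), with signals of 4.57, 4.40, 4.15 and 4.43 in tamoxifen-treated cells and 3.64, 3.84, 3.74 and 3.63 in untreated cells. DCAF5, a substrate receptor of the CUL4 ubiquitin ligase, differed by 0.49 ± 0.08 (SE). In each of these 3 genes the groups were separate at the probe set named. Their other probe sets did not share the size: 4 of KLHL5 ran between -0.02 and 0.23, 4 of DCAF5 between -0.17 and 0.07, and the second of NEK2 stood at 0.11. GLT8D2, a glycosyltransferase domain protein, differed by 0.59 ± 0.11, FAM76B by 0.43 ± 0.08, DEGS2, an enzyme of sphingolipid synthesis, by 0.41 ± 0.07, EPM2A, the glycogen phosphatase laforin, by 0.39 ± 0.07 and MTERF1, a mitochondrial transcription termination factor, by 0.38 ± 0.07 (SE). CD47, a surface protein that inhibits phagocytosis, differed by 0.42 ± 0.08 (SE) at 213856_at, while its other 6 probe sets ran between -0.24 and 0.17. The second GLT8D2 probe set stood at -0.10, the other 3 of FAM76B between -0.12 and 0.11, and the other 2 of EPM2A at 0.12 and -0.04. Adjusted p-values of the 9 genes beside KRT13 lay between 0.339 and 0.349.

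Among the lower genes, SLITRK6, a transmembrane protein of neurite growth, came closest to passing. It read 5.75, 5.52, 5.55 and 5.90 with tamoxifen, against 6.30, 6.11, 6.03 and 6.45 without it, a difference of -0.55 ± 0.06 (SE) with a limma adjusted p of 0.0799. The groups did not overlap at this probe set, and the other probe sets of the gene differed by only -0.01 and -0.12. NCAM1, the neural cell adhesion molecule, read 6.01, 5.74, 5.67 and 5.74 in tamoxifen-treated cells, against 6.64, 6.22, 6.32 and 6.41 in untreated cells. Its difference was -0.61 ± 0.08 (SE), and its adjusted p was 0.164.

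CISH, a STAT-induced inhibitor of cytokine receptor signalling, was lower on 2 probe sets. The first, 221223_x_at, read 4.28, 4.36, 4.09 and 4.28 with tamoxifen, against 5.06, 4.76, 4.94 and 4.67 without it, a difference of -0.60 ± 0.10 (SE). The second, 223377_x_at, differed by -0.52 ± 0.09 (SE), and neither showed an overlap of groups. THBS2, a matrix glycoprotein, was the most even of the 10 lower genes over its pairs, at 4.40, 4.44, 4.46 and 4.42 in tamoxifen-treated cells and 4.90, 4.94, 4.93 and 4.95 in untreated cells. CMIP, an adaptor protein, differed by -0.51 ± 0.08 (SE) at one probe set and by -0.34 at another, 231643_s_at. The remaining 5 were C5orf63 at -0.63 ± 0.10, B4GAT1, an enzyme of dystroglycan glycosylation, at -0.45 ± 0.08, CEL, a bile salt-dependent lipase, at -0.44 ± 0.07, ECHDC2, a mitochondrial hydratase-like protein, at -0.44 ± 0.08, and REPS2, an endocytic adaptor, at -0.40 ± 0.07 (SE). For CISH, THBS2, CMIP and these 5 genes the adjusted p was 0.339. The other probe sets of these 10 genes had smaller differences: 6 of NCAM1 ran between -0.35 and 0.08, 3 of C5orf63 between -0.20 and -0.03, and the third CISH and CMIP probe sets stood at -0.20 and -0.09. Others stood at 0.04 for B4GAT1, -0.14 for CEL, -0.08 for ECHDC2, and -0.16 and -0.12 for REPS2. Of the 21 named genes, PHLDA1 included, KRT13 alone had overlapping groups. Choosing genes by small p and agreeing pairs favours separate groups, so that count is not a result. Among all probe sets above the median signal, 9.79% had separate groups.

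**Figure D3:**
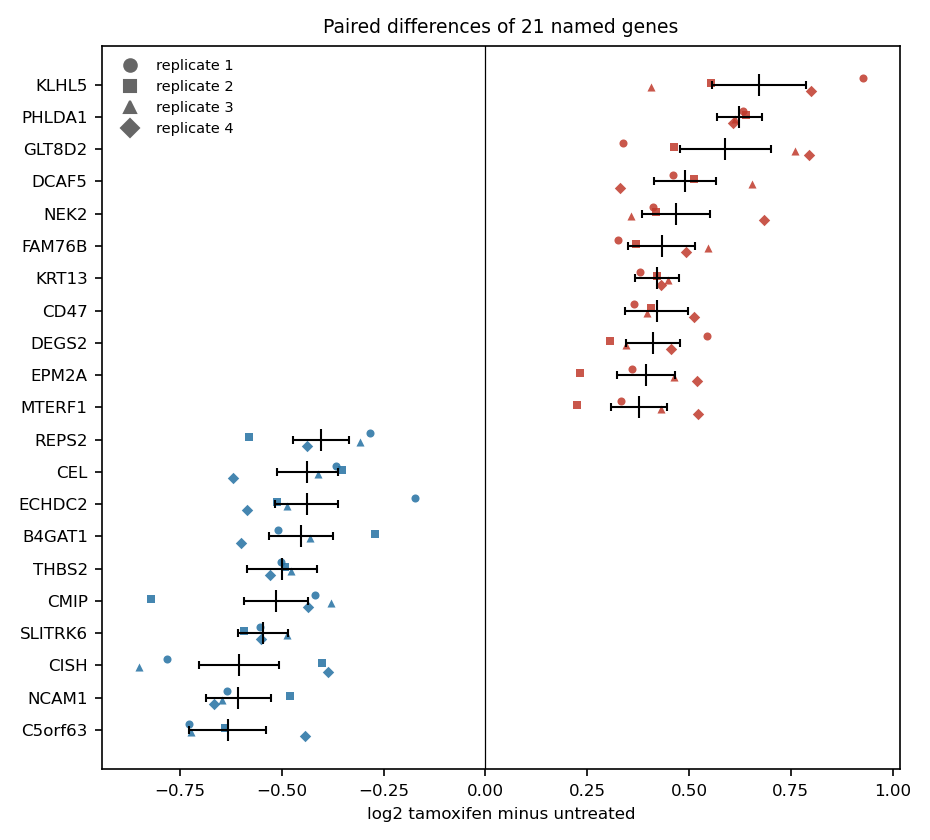
Paired differences, tamoxifen-treated minus untreated (log2, horizontal axis), for each of the 21 named genes, with 1 point per replicate number and the mean. PHLDA1 alone passed, and its 4 points nearly coincide between 0.61 and 0.64.

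The promoters of the named genes were searched for the same motifs, and 17 of 21 had an entry in the RefSeq table of 300-base windows. A full estrogen response element occurred in 0 of 17, against 0.0659% of all 27305 promoters. The single arm occurred in 6 of 17 (35.3%), against 37.7% of all promoters. An AP-1 site was present in SLITRK6 alone (7.76% of all promoters) and a cyclic AMP response element in CMIP alone (1.98% of all promoters).

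Genes of known roles were then read through 37 lists, each gene by its brightest probe set, with 671 of 731 listed genes measured. None of the 671 passed the limma test with the block, while 44 were higher and 28 lower at an unadjusted p below 0.05 (10.7%, against 8.96% of all probe sets and 11.6% of those above the median signal). Without the block 4 genes passed, PHLDA1 and the histone gene H3C2 higher and MYC and PDE4B lower. List medians lay between -0.08 and 0.12. Where more than 4 members of a list are named, those beyond the 4 of smallest p were named after their values were seen.

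Estrogen-induced genes had the most members on one side. Of 33 measured, 10 were higher and 1 lower at an unadjusted p below 0.05 (33.3%, against 8.96% of all probe sets and 11.6% of those above the median signal), with a median difference of 0.12 against 0.01 over all probe sets. GREB1, a chromatin-bound cofactor of the estrogen receptor, read 11.48, 11.45, 11.53 and 11.13 in tamoxifen-treated cells, against 10.92, 11.10, 10.87 and 11.04 in untreated cells. PDZK1, a scaffold protein, read 11.48, 11.15, 11.20 and 10.93 with tamoxifen, against 10.69, 10.85, 10.70 and 10.90 without it. In both genes the groups were separate but replicate 4 hardly differed, by 0.09 for GREB1 and 0.03 for PDZK1. PKIB, an inhibitor of protein kinase A, was more even, at 9.93, 9.99, 9.94 and 9.89 in tamoxifen-treated cells and 9.74, 9.71, 9.65 and 9.60 in untreated cells. CYP1B1, an estrogen-metabolising cytochrome, differed by 0.35 ± 0.11, and RERG, a RAS-like growth inhibitor, by 0.32 ± 0.11 (SE), both without overlap. The other 5 were KRT13, NRIP1, HSPB8, RARA and IGFBP4, whose groups overlapped. The probe sets of these genes differed among themselves: the other 2 of GREB1 stood at 0.03 and 0.04, and a second, dimmer one of HSPB8 (233057_at) at -0.54, lower in all 4 pairs without overlap (unadjusted p 0.0214), against 0.30 at the brightest. Adjusted p-values of the 10 ran between 0.164 and 0.505, so none of them is a call by itself.

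MYC, a growth-promoting transcription factor that estradiol induces within the hour in such cells, was the 1 estrogen-induced gene on the other side. It read 7.30, 7.35, 7.44 and 7.63 in tamoxifen-treated cells, against 8.54, 8.11, 8.17 and 8.14 in untreated cells. Every tamoxifen array lay below every untreated array, and the paired differences were -1.24, -0.75, -0.73 and -0.52. The mean difference was -43.1% in signal, a log2 difference of -0.81 ± 0.14 (SE), with a limma adjusted p of 0.339 with the block and 0.0343 without it. MYC is measured by 1 probe set.

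Of 29 estrogen-repressed genes measured, 2 were higher and 5 lower at an unadjusted p below 0.05 (24.1%, against 8.96% of all probe sets and 11.6% of those above the median signal), and the list median was -0.07. PIK3IP1, an inhibitor of phosphoinositide 3-kinase, differed by -0.43 ± 0.11, ERBB2, the HER2 receptor, by -0.39 ± 0.13 at its brightest probe set and by -0.06 and 0.17 at the others (the last with an unadjusted p of 0.0326), and BIK, a death-promoting BCL2 relative, by -0.22 ± 0.08 (SE). HES1, a Notch-responsive repressor, was less even, with paired differences of -0.62, 0.07, -0.24 and -1.02. CYP1A1, a xenobiotic-metabolising cytochrome, and GADD45B, a stress gene, were the 2 higher ones, at 0.48 and 0.19.

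**Figure D4:**
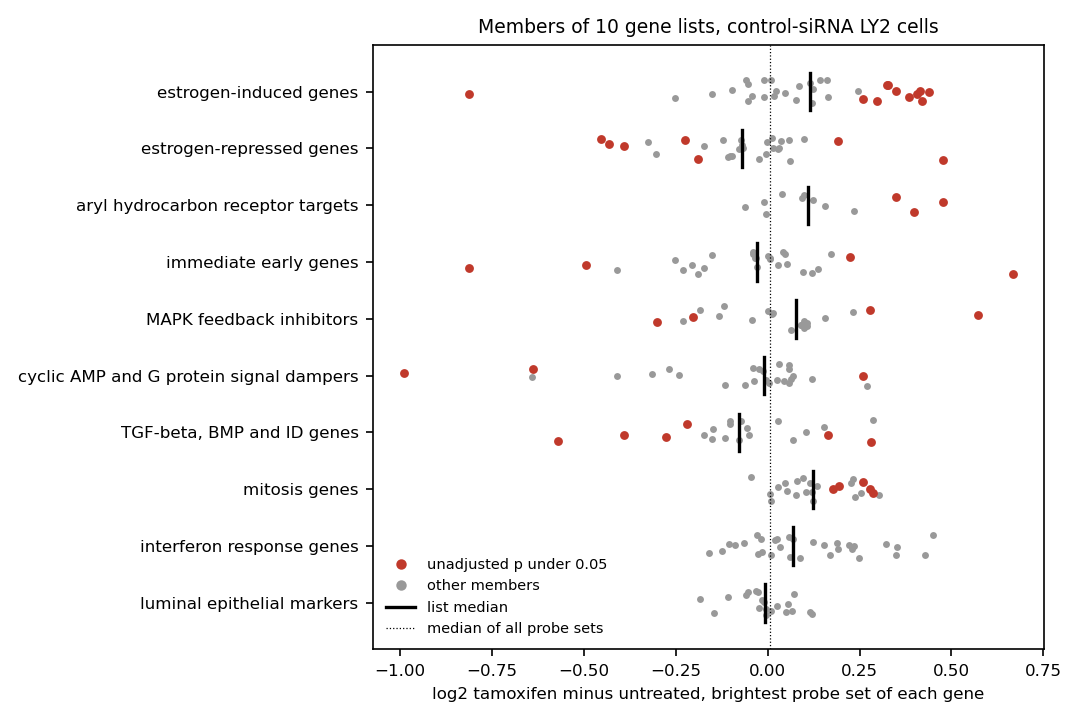
Difference between tamoxifen-treated and untreated control siRNA cells (log2, horizontal axis) for the members of 10 of the gene lists, each gene by its brightest probe set. Members with an unadjusted p below 0.05 are coloured. Bars mark the list medians, and a dotted line marks the median of all probe sets. Estrogen-induced genes have 10 of 33 members higher and 1 lower at that threshold, against 4.63% higher and 4.33% lower over all probe sets. Among probe sets above the median signal 5.6% were higher and 6.04% lower. The lists were chosen with earlier results of these data known. No member of any list passed after adjustment at its brightest probe set.

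Signalling feedback genes did not move as a block. Among 22 inhibitors of MAPK signalling, 2 were higher (PHLDA1 and RASA2, a RAS GTPase activator, at 0.28 ± 0.08) and 2 were lower (PHLDA3 and TRIB1, a pseudokinase, at -0.30 ± 0.08, SE). Among 27 immediate early genes, 2 were higher and 2 lower at the same threshold. The shares were 18.2% for the MAPK list and 14.8% for immediate early genes, against 8.96% of all probe sets and 11.6% of those above the median signal. These were KLF10, a TGF-beta-inducible repressor, at 0.22, the orphan receptor gene NR4A3 at 0.67, its relative NR4A2 at -0.49, and MYC. NR4A3 rested on replicate 4, whose difference was 1.90, against -0.02 to 0.42 in the other 3.

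PDE4B, which degrades cyclic AMP, is 1 of 26 measured dampers of cyclic AMP and G protein signalling. By brightest probe set it had the largest difference of any gene in the lists. It read 4.47, 4.49, 4.05 and 4.81 with tamoxifen, against 5.75, 5.48, 5.47 and 5.08 without it. The groups were separate, with replicate 4 again the least different at -0.28. The mean difference was -0.99 ± 0.19 (SE), with a limma adjusted p of 0.349 with the block and 0.0457 without it. SIK1, a kinase that cyclic AMP induces, differed by -0.64 ± 0.19 (SE), also with separate groups. The other probe sets stood at -0.10 and -0.10 for PDE4B and at 0.02 for SIK1. Of the list, 1 gene was higher and 2 lower at an unadjusted p below 0.05. That share (11.5%) was near those of the arrays (8.96% of all probe sets and 11.6% of those above the median signal).

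Receptor and coregulator genes mostly stayed near 0. Of 26 nuclear receptors, RARA, a retinoic acid receptor, was higher and NR1H3, the oxysterol receptor LXR alpha, lower (-0.40 ± 0.12, SE) at an unadjusted p below 0.05. Of 20 coactivators and corepressors, NRIP1, a corepressor that estradiol induces, was higher and CARM1, an arginine methyltransferase, lower (-0.22 ± 0.07, SE). Of 12 aryl hydrocarbon receptor targets 3 were higher and 0 lower at the same threshold (25%). The shares of the receptor and coregulator lists, 7.69% and 10%, were near those of the arrays (8.96% of all probe sets and 11.6% of those above the median signal). TIPARP, a mono-ADP-ribosyltransferase that represses that receptor, had separate groups, at 9.09, 9.35, 9.52 and 9.34 in tamoxifen-treated cells and 8.997, 8.97, 9.03 and 8.71 in untreated cells. CYP1A1 and CYP1B1 were the other 2, and AHRR, the receptor's repressor, differed by 0.23 ± 0.11 (SE).

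In the TGF-beta, BMP and ID list 2 of 21 genes were higher and 4 lower at an unadjusted p below 0.05 (28.6%, against 8.96% of all probe sets and 11.6% of those above the median signal). BAMBI, a decoy receptor, read 12.01, 11.93, 12.01 and 11.88 with tamoxifen, against 12.31, 12.17, 12.16 and 12.31 without it. ID1, an inhibitor of helix-loop-helix factors, read 8.95, 8.96, 8.95 and 9.63 with tamoxifen, against 9.94, 9.53, 9.79 and 9.50 without it. BAMBI was lower in every pair, whereas ID1 was lower in replicates 1 to 3 and not in replicate 4. At the same threshold mitosis genes were higher in 5 of 24 and lower in 0 (20.8%), with a median of 0.12. Over all probe sets 4.63% were higher, and 5.6% of those above the median signal. They were the kinases TTK (0.29 ± 0.08) and CDK1 (0.18 ± 0.07), the cyclin CCNB2 (0.28 ± 0.09) and the kinetochore genes NUF2 and NDC80. Of 26 replication genes, PCNA, the polymerase clamp, differed by 0.23 ± 0.06 (SE), and RFC2, a clamp loader subunit, by 0.23 ± 0.09 (SE).

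Several programmes showed 0 members past an unadjusted p of 0.05: cholesterol synthesis (16 genes), interferon response (31), NF-kappa-B feedback and cytokines (23), the circadian clock (14), ribosomal proteins (14), the small RNA pathway (12), luminal markers (20) and basal and mesenchymal markers (16). Other lists are read against 8.96% of all probe sets and 11.6% of those above the median signal. In the integrated stress response 1 of 20 was higher (5%). The shares were near or slightly above the background in endoplasmic reticulum chaperones, with 2 of 20 higher and 1 lower (15%), in heat shock genes, with 2 of 15 higher (13.3%), and in NRF2 targets, with 1 of 16 higher and 1 lower (12.5%). The p53 targets had 3 of 18 lower (16.7%) and the BCL2 family 2 of 16 lower (12.5%), BIK and BAX. Replication-dependent histones had 3 of 10 higher (30%), of which H3C2 and H1-4 were below the median signal. Growth factor receptors and ligands had 2 of 23 higher and 3 lower (21.7%). Among them were the receptors ERBB4 at -0.24 and FGFR1 at -0.38 (226705_at). A second FGFR1 probe set, 215404_x_at, stood at 0.21, higher in all 4 pairs without overlap (unadjusted p 0.0456). Notch and Wnt targets had 1 of 19 higher, HEY2, and 3 lower (21.1%). Among the lower was RNF43, a ubiquitin ligase that removes Wnt receptors, at -0.35. Metallothioneins and zinc transporters had 1 of 12 higher, MT1E, and 2 lower (25%). Genes reported as SRC-1 dependent had 0 of 16 higher and 2 lower (12.5%), MYC and DIABLO. The higher members were 2 of 21 lysosome and autophagy genes (9.52%) and 2 of 20 hypoxia and glycolysis genes (10%). They were 2 of 21 splicing factors (9.52%) and 1 of 22 respiratory chain genes (4.55%), with 0 lower in these lists. The shares of the lysosome, hypoxia, splicing and respiratory chain lists did not exceed the 11.6% of probe sets above the median signal. Counting higher ones alone, that background was 5.6%, which 9.52% and 10% exceeded. Several shares given earlier, such as 30% for histones and 25% for metallothioneins, exceeded 11.6%. They rest on few members and were not tested, so the side of so few members is not a result about the lists.

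Leaving out replicate 4 changed which probe sets passed. Of 5 probe sets that passed when all arrays numbered 4 were left out, the SRC1 siRNA one included, all were higher with tamoxifen, and PHLDA1 was not among them (adjusted p 0.0906). They are named here after their values were seen, and since they were chosen by passing without replicate 4, a different value in that replicate is fixed by the choice. SMTNL2, a smoothelin-like protein, read 7.09, 7.36, 7.27 and 5.92 with tamoxifen, against 5.83, 5.81, 5.70 and 6.32 without it. It was higher by 1.27, 1.55 and 1.56 in replicates 1 to 3 and differed by -0.40 in replicate 4. LINC01588, a long noncoding RNA, had differences of 1.31, 1.67, 1.30 and -0.20, and KCNK6, a potassium channel, of 1.07, 1.16, 0.89 and -0.18. The same shape held in HEY2, a Notch target repressor, at 0.78, 1.41, 1.40 and -0.17 (219743_at), and in NRIP1, at 2.05, 1.87, 1.09 and -0.29 (202600_s_at). WNT16 (1.09, 1.36, 1.44 and 0.25) and FCGR2B (1.17, 1.69, 1.17 and 0.51) kept their sign in replicate 4 but were smaller there, and WNT16 lay below the median signal. Replicate 4 was also the smallest in RAB37 (2.46, 1.46, 0.59 and -0.03) and in 244124_at, without a symbol (2.885, 1.24, 0.84 and 0.24). Of the 7 probe sets at least 2-fold higher in the mean, only HEG1 had its smallest difference elsewhere. HEG1, a transmembrane protein, had 1.45, 1.40, 0.79 and 0.88. On the lower side 235739_at, without a symbol, had -2.33, -0.26, -0.32 and -1.27, while RBM34 and 237829_at had their largest falls in replicate 4. Leaving out the tamoxifen array of replicate 4 alone gave 8 passing probe sets, 7 higher, including PHLDA1 and HEY2, and 1 lower, that of the chromatin factor ARID5B at -0.62 (adjusted p 0.0331). Leaving out tamoxifen replicate 1 gave 1 passing probe set without a gene symbol, lower by 0.95 on the log2 scale. Why replicate 4 differed in these probe sets was not tested, and the labels give no batch.

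Set beside the SRC1 siRNA cells, PHLDA1 had close values. The 217996_at signal differed by 0.62 in control siRNA cells and 0.60 in SRC1 siRNA cells (0.63 in replicate 1 and 0.58 in replicate 3), and their difference was 0.02 ± 0.09 (SE, unadjusted p 0.797). All 6 PHLDA1 probe sets were higher in both, with a median difference of 0.51 after control siRNA and 0.40 after SRC1 siRNA. The 10 other higher named genes and PHLDA1 had a median of 0.43 after control siRNA and 0.14 after SRC1 siRNA, and the 10 lower ones -0.51 after control siRNA and -0.21 after SRC1 siRNA. These genes were chosen for their size in control siRNA cells, so the medians do not compare the siRNAs on equal terms. CISH was lower by a like amount (-0.60 in control siRNA, -0.73 in SRC1 siRNA cells), and CD47 was higher by a like amount (0.42 and 0.44). MYC differed by -0.81 after control siRNA and -0.16 after SRC1 siRNA, with an unadjusted interaction p of 0.0178 and an adjusted p of 0.489. GLT8D2 (0.59 and -0.19), NEK2 (0.47 and -0.01), CMIP (-0.51 and 0.06) and ECHDC2 (-0.44 and 0.21) also differed between the siRNAs in value. No interaction passed in the limma fit: 0 of 54613 after adjustment, 4879 (8.93%) at an unadjusted p below 0.05, and 153 after adjustment without the block. Tamoxifen in the SRC1 siRNA cells gave 0 passing probe sets with the block, 5013 (9.18%) at an unadjusted p below 0.05, and 824 without the block. Differences after the 2 siRNAs had the same sign for 48.5% of all probe sets and for 17 of the 21 named genes.

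**Figure D5:**
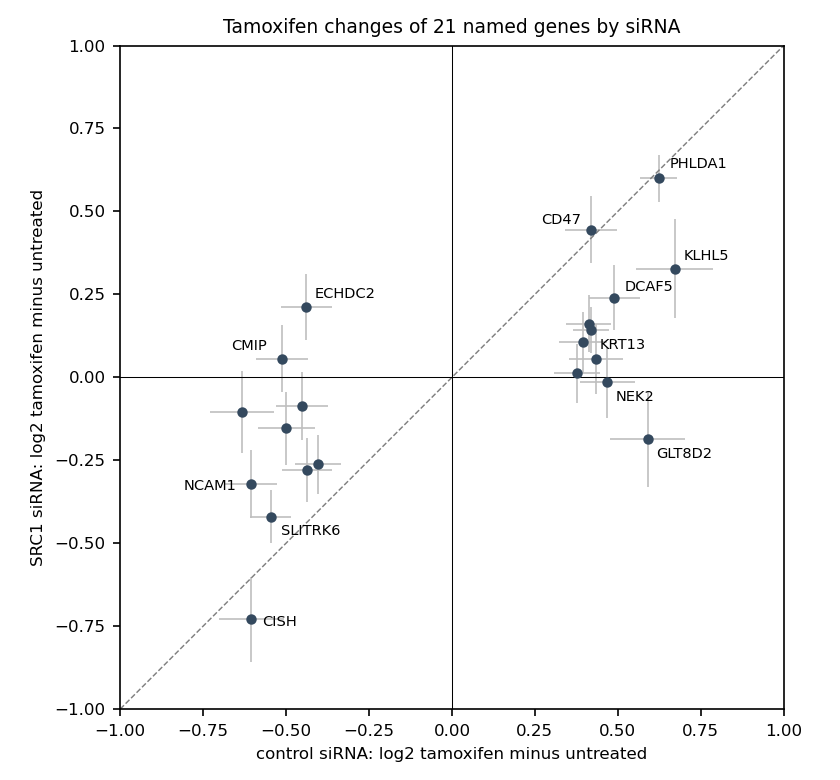
Difference between tamoxifen-treated and untreated cells (log2) for the named genes in control siRNA cells (4 and 4 arrays) and in SRC1 siRNA cells (2 and 4 arrays). PHLDA1 stands at 0.62 after control siRNA and 0.60 after SRC1 siRNA, while no difference between the siRNAs passed after adjustment.

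Opposed probe sets of one gene were counted among 10523 genes with several probe sets. With the block 0 genes had one passing higher and another passing lower with limma, which was fixed because only 1 probe set passed. Without the block the count was also 0, but the 77 passing probe sets with 1 symbol covered 74 genes, so few could be opposed. At an unadjusted p below 0.05 there were 108 such genes. How often probe sets of one gene oppose each other was not tested.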

How the data were processed

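Per the labels' protocols, extracted RNA went through DNase digestion, NuGEN Ovation amplification and biotin labelling before hybridisation. The authors deposited 1 table of log2 values, 1 per probe set and array. The log base was inferred from the range of values. How background, normalization and probe set summary were handled is not given in the sources used here. R 2.9.2 is named in the submitters' processing notes. Values were used as deposited, without 62 array control probe sets. In the platform annotation, with symbols updated through RefSeq, 41091 probe sets had 1 symbol, 1801 several and 11721 none. Precision is limited by the number of arrays.

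A linear model with 4 group means and the replicate number was fitted to all 14 arrays with limma 3.58.1 in R 4.3.3 (lmFit and eBayes, 7 residual degrees of freedom before moderation). P-values are two-sided and adjusted by Benjamini-Hochberg over 54613 probe sets, with a threshold of 0.05. Labels call the replicates biological and say nothing of separate cultures, so p-values measure the spread between these arrays. The block follows the definition of the comparison, paired by number. As a check of the pairing, same-numbered control siRNA arrays had correlations of their deviations from the group means of -0.148, -0.187, -0.0825 and -0.202, and the F of replicate number had a median of 0.0428, where 0.871 would hold for independent arrays.

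Named genes are those that passed, the 10 per direction of smallest unadjusted p (1 symbol, mean above 3.46, same sign in 4 pairs), NCOA1, and per list up to 4 genes of smallest p. Other genes were named after their values were seen, as stated where they occur. Members, lists and tests were chosen with earlier results of these data known. Promoters are from RefSeq (GRCh38.p14). The fits were tested on simulated data with independent noise. Those data lacked the replicate pattern of these arrays, so that test does not show how the fits behave under it. Alternatives left out the block, the SRC1 siRNA arrays, dim probe sets, each array and each replicate number, or used quantile normalization, median centring, array weights, a robust trend, the array control probe sets and gene means.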

Additional observations from a re-analysis of the deposited data

Results flagged for a closer look

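In 44 groups of 4 arrays that were checked for 1 array far from the other 3, 4 had such an array, where chance gives about 1 in 20. KRT13 read 5.37 in tamoxifen replicate 4, against 4.84 to 4.91 in the other tamoxifen arrays, and 4.94 in untreated replicate 4, against 4.46 to 4.47 in the other untreated arrays, so the paired difference kept its size. NEK2 read 9.29 in untreated replicate 4, against 9.49 to 9.52 in the other 3 untreated arrays. CMIP read 8.52 in untreated replicate 2, against 8.25 to 8.27 in the other 3.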

How the results depend on the processing

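The number of passing probe sets in control siRNA cells, 1 with the block, was 89 with no replicate block, 0 with the block and only the 8 control siRNA arrays, 0 with a robust trend, 2 with array weights (SLITRK6 joined PHLDA1, adjusted p 0.0419), and 0 to 8 when 1 array or 1 replicate number was left out. All 89 had 4 pairs of one sign, and their adjusted p with the block lay between 0.0154 and 0.384. Passing probe sets for tamoxifen in SRC1 siRNA cells, 0 with the block, were 824 with no replicate block, 9 with a robust trend and 0 to 13 with an array or number left out. For the interaction, also 0, the counts were 153, 1 and 0 to 2. Listed genes that passed were 0, and 4 with no replicate block. With the mean of all probe sets per gene 1 passed, KRT13 (adjusted p 0.0378). The NCOA1 difference was -0.0385 without replicate 4 and up to 0.13 without another number. Of the arrays, 0 correlated best with their own number, but the F of replicate number lay in its lowest 5% for 77.8% of probe sets, and whether values had been adjusted by replicate number before deposit cannot be told from the files. PHLDA1 217996_at passed in 7 of 20 settings, with an adjusted p of 0.000411 to 0.778 and 0.0577 with a robust trend. Over 92 probe sets and these settings, 1802 of 1837 values kept direction and call and 0 changed direction. A call was gained by 22 values (21 of them with no replicate block) and lost by 13. Of the 92, PHLDA1 217996_at alone passed in the main fit, so most kept values are those of probe sets that did not pass. Settings that alter only the block or the estimate of spread leave the mean difference as it was, so direction could not change there. Why the counts moved was not tested. With only the 8 arrays the SRC1 siRNA and interaction counts have no value. Where number 1 or 3 was left out, the lone SRC1 siRNA tamoxifen array was taken to vary as the other groups do.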

Other observations

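The 89 probe sets that passed without the block held 74 genes, 33 higher and 41 lower, PHLDA1, MYC, PDE4B and other genes described above among them. A few further ones are named here after their values were seen. Among the lower ones, IGFBP5, a growth factor binding protein, differed by -0.58 at 1555997_s_at, with signals of 5.67, 5.96, 5.78 and 5.53 in tamoxifen-treated cells and 6.50, 6.13, 6.28 and 6.34 in untreated cells, while its brighter probe set 211959_at differed by -0.17 with overlapping groups. AFF3, a nuclear protein of transcription elongation complexes, read 4.31, 4.26, 4.38 and 4.21 with tamoxifen, against 4.92, 4.82, 4.81 and 4.65 without it. Its difference was -0.51 after control siRNA and -0.83 after SRC1 siRNA. TCIRG1, a proton pump subunit, differed by -0.57 and IFNAR1, an interferon receptor chain, by -0.37. On the higher side, the deacetylase gene SIRT1 differed by 0.37 and the kinase gene DYRK2 by 0.32. With the block none of these passed. AFF3, IFNAR1 and DYRK2 were read here at 243967_at, 225669_at and 202970_at. Their other probe sets did not pass even without the block.

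RBM34 had the most negative mean difference of all probe sets, -1.27 at 214942_at, and it rested on both arrays of replicate 4. Tamoxifen replicate 4 read 1.96, against 3.42 to 3.79 in the other tamoxifen arrays, and untreated replicate 4 read 7.16, against 3.50 to 3.73 in the other untreated arrays.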
